A study of Sus scrofa with 6 samples.

Results

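Predicted microRNAs were measured in small RNA from the skin of Xiang pigs, in 3 libraries of black skin (S03, S04 and S05) and 3 of white skin (S02, S06 and S07). In both groups the skin was cleaned with alcohol, freed of hair and frozen in RNAwait before a NEB small RNA kit was used, and the labels give no animal, sex, age, body site or batch. The groups are therefore known by colour alone, and since nothing says that the libraries come from separate pigs, each p-value reflects the scatter of these 6 libraries, which could be technical. The table lists 898 miRNAs, and 618 of them carry an identifier starting with "unconservative" in place of a miRBase-style name. Values are RPM, reads scaled to a common library total over all listed miRNAs. Before scaling these totals were 6454685 to 10165949 reads, with rows of equal values each counted.

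The 240 miRNAs described here were chosen by their level. Of the 618 predicted identifiers 249 had a mean of at least 1 RPM over the 6 libraries and 369 did not. From the 249, unconservative_1_52628 and unconservative_AEMK02000452.1_1853219 were left out, the first of which differs more between the groups than any other tested predicted miRNA, so the counts of differences below are without it. A further 7 rows repeated the values of an earlier row in all 6 libraries and were dropped. The mean level is thus a description. Apart from that omission no row was taken or left out by its difference between black and white skin. The limit is not free of that difference, since a row can reach it through the group where it is high. This was so for unconservative_6_663466 and unconservative_1_93424, whose white means were both 0.796 RPM.

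A miRNA is a short RNA cut from a hairpin precursor, and it guides an Argonaute protein to messenger RNAs that pair with its seed. Prediction programs propose further miRNAs from reads that map to a genome site which can fold into a hairpin. Such a proposal is a candidate until its processing has been shown, since fragments of other RNAs and reads that map to several sites can give the same picture. In skin, miRNAs act in keratinocytes, fibroblasts, vessels and the pigment cells that make melanin. The identifiers here come with neither a sequence nor a target, so no function is given for any of them.

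The identifiers carry a chromosome or scaffold name of the pig assembly Sscrofa11.1 followed by a number. Over all 618 the number ranges of the 27 names did not overlap (0 names shared a range with another), so the number follows the order of the names. Of the 240, 201 carry 1 of the 18 autosomes, 18 carry X, 21 carry an unplaced scaffold, and none carries Y or MT. The row unconservative_Y_1846825 had been dropped as a repeat of unconservative_X_1819778. Chromosome 6 has 24 of them, chromosome 13 has 21 and chromosome 3 has 19. The scaffold AEMK02000452.1 has 18, as many as the whole of X. What the number counts is not given in the sources used here, so no genome position is printed.

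The predicted miRNAs were scarce beside the named ones, and a few rows held nearly all of their reads. The median mean level was 2.65 RPM, against 77.3 RPM for the 248 miRBase-style miRNAs with a mean of at least 1 RPM. Only 4 (1.67%) exceeded 1000 RPM and 15 (6.25%) exceeded 100 RPM, whereas 48 and 118 named miRNAs did so. The single most abundant row held 30.9% of the reads of the 240, the first 4 held 85.5% and the first 10 held 92.1%. The other 230 rows thus shared the small remainder. Just inside the limit of 1 RPM were unconservative_9_1024868 at 1.01 RPM, unconservative_13_1358398 at 1.01 RPM and unconservative_2_264002 at 1.0 RPM. Just outside it were unconservative_9_1019507 at 0.980 RPM, unconservative_1_64762 at 0.979 RPM and unconservative_2_274119 at 0.969 RPM.

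**Figure D1:**
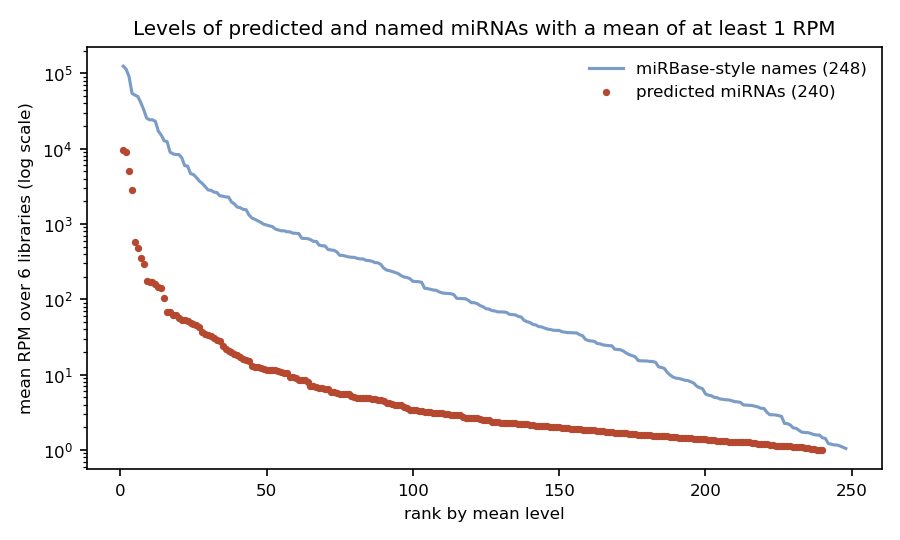
Mean RPM over the 6 libraries on a log axis against rank, for the 240 predicted miRNAs (points) and the 248 named miRNAs of at least 1 RPM (line). The first 4 predicted miRNAs lie above 1000 RPM, and the level then drops below 1000 RPM and flattens towards the limit of 1 RPM.

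Together the 240 held a larger share of all reads in white skin than in black skin, and a smaller share of the reads of predicted identifiers alone (20.04% in white and 23.4% in black skin). The share of all reads was 3.55% in S02, 3.52% in S06 and 3.16% in S07, all white, and 2.46% in S03, 3.03% in S04 and 2.81% in S05, all black. The groups did not overlap, and the white mean of 3.41 ± 0.219% compared with a black mean of 2.77 ± 0.292% (SD, n = 3). The 4 most abundant rows alone made up 2.97 ± 0.202% of white and 2.31 ± 0.269% of black reads (SD, n = 3). Mean RPM was lower in black skin for unconservative_6_673431 (11651 in white, 6274 in black) and unconservative_5_628504 (6252 and 3834). It was higher there for unconservative_15_1593718 (9044 and 10023) and unconservative_6_673433 (2786 and 2954), so the 4 did not move together. For the other 236 the white share was 0.439 ± 0.0261% and the black share 0.458 ± 0.0536% (SD, n = 3), and there the groups overlapped. No test was made of these sums, since the rows were chosen with results of these data known. In whole skin, fewer cells of a type and less RNA per cell cannot be told apart.

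Levels of some cell type markers moved between the groups as well. The summed RPM of the vessel wall miRNAs (miR-126, miR-143 and miR-145, 6 rows) was 44365 to 58091 in white and 96227 to 119950 in black skin. The single listed melanocyte marker, miR-204, was at 57.7 to 71.1 RPM in white and 88.5 to 135 RPM in black skin, and miR-211 had no row. Summed keratinocyte markers overlapped, at 15361 to 23062 RPM in white and 11807 to 16941 RPM in black skin, with 2 of 7 names listed. Leukocyte (590 to 1321 and 901 to 1570 RPM), erythroid (1723 to 4914 and 994 to 4298 RPM) and striated muscle markers (460 to 1877 and 722 to 1386 RPM) overlapped in their sums too. Single rows did not all follow their sum. Of the 4 leukocyte rows miR-142-3p rose in black skin (difference 1.96, limma adjusted p = 0.0324), and the others overlapped. Of the 3 erythroid rows miR-486 was lower in every black library (-1.68, adjusted p = 0.0743). The other erythroid rows, miR-451 (-0.87) and miR-144 (1.24), lay in opposite directions and overlapped. All 5 striated muscle rows overlapped, with the widest tested difference in miR-206 (-2.56, adjusted p = 0.0804). Of the 6 vessel wall rows 3 rose, and miR-204 did not pass (0.82, adjusted p = 0.0804). The part of these cells in the differences below was not tested.

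Few of the 240 differed between the groups past the threshold. A row was tested where reads were high enough in at least 3 libraries, which kept 204 of the 240 and 454 of the 898 in the table. The 36 untested rows had means of 1.0 to 2.11 RPM. Of the 204, 2 rose and 3 fell in black skin at an adjusted p under 0.05 (limma on log2(RPM + 1), Benjamini-Hochberg over all 454), which is 2.45%. Of these 5, 3 reached the level of the filter, 1.33 RPM, only in the libraries of the group where they are high, so their entry into the test already required a difference and their calls are descriptions. The other 2, unconservative_6_673431 and unconservative_3_403490, were above it in all 6 libraries. Over all 454 tested miRNAs 7.05% were called, 3.96% higher and 3.08% lower in black skin. How many of those calls entered the test through 1 group was not counted. Groups did not overlap for 36 of the 204 (17.6%), 17 higher and 19 lower in black skin, beside 27.3% of all 454. An unadjusted p under 0.05 was reached by 37 of the 204 (18.1%), beside 25.6% of all 454. The share called was thus below that of the whole table on each count. The median difference was 0.04 for the 204 and 0.0 for all 454 (log2, black minus white), and 110 of the 204 lay above 0, or 97 when RPM were scaled to named miRNAs alone.

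**Figure D2:**
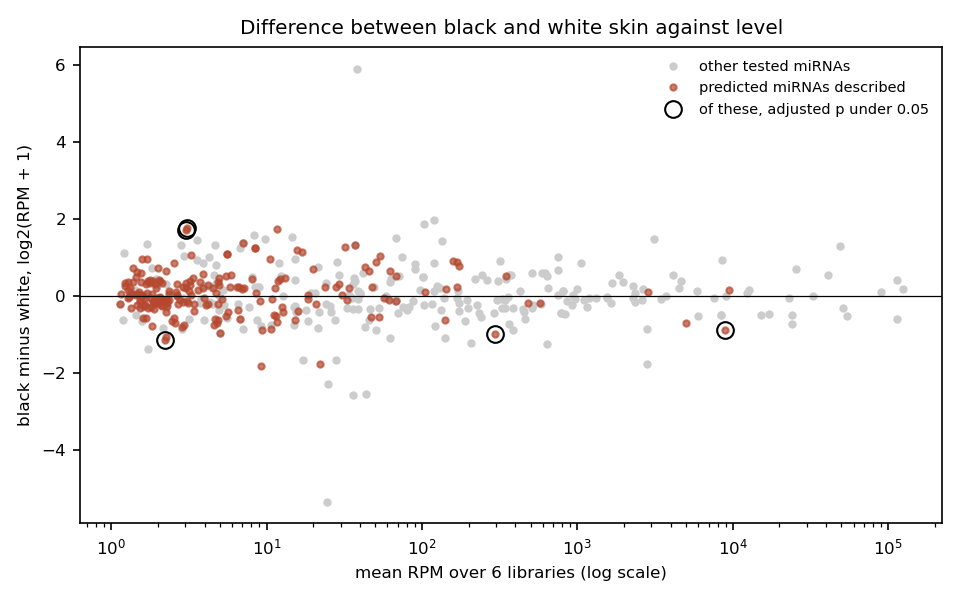
Difference between black and white skin on the log2(RPM + 1) scale against mean RPM on a log axis, for the 204 tested predicted miRNAs (red) and the other tested miRNAs (grey); circles mark the 5 called. Differences of the 204 run from -1.82 to 1.75, and the circles of 2 rows with near-identical values coincide near 3 RPM.

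The count of calls was split by level. At 1 to 10 RPM 3 of 147 were called (2.04%), the 3 that passed the filter through 1 group, beside 7 of 55 named miRNAs (12.7%). At 100 RPM or more 2 of 15 were called (13.3%), beside 14 of 118 named miRNAs (11.9%). Between 10 and 100 RPM limma called 0 of 42, although 10 of them had an unadjusted p under 0.05. On reads recovered from the RPM values edgeR called 0 and DESeq2 5 of those 42. Of the 69 named miRNAs of that range limma called 5, edgeR 6 and DESeq2 11, and 19 had an unadjusted p under 0.05 (limma). The replicates of these mid-level predicted miRNAs scattered more, with a median coefficient of variation within groups of 40.3%, against 18.9% for the 69 named ones. Their median counting error, the relative error that the number of reads alone gives, was 7.54% per library, against 5.83% for those named miRNAs. Below 10 RPM the coefficients were close, at 34.4% for predicted and 35.9% for named miRNAs, with median counting errors of 25.3% and 18.3%.

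Of the abundant rows, 1 fell in black skin. unconservative_6_673431, the second most abundant of the 240, measured 11553, 13546 and 9854 RPM in S02, S06 and S07, then 5286, 7470 and 6066 RPM in S03, S04 and S05. Every white library was above every black one. The white mean was 11651 ± 1848 RPM and the black mean 6274 ± 1107 RPM (SD, n = 3), 1.86-fold lower in black skin (difference -0.90, standard error 0.19, limma adjusted p = 0.0318). The call was also made by edgeR (adjusted p = 0.0315) and DESeq2 (0.0164), and was lost without S03 (0.107), S05 (0.109) or S06 (0.116).

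Its closest neighbour by number did not share this difference. unconservative_6_673433 measured 3344, 2847 and 2168 RPM in S02, S06 and S07, then 2892, 3259 and 2711 RPM in S03, S04 and S05. The groups overlapped, and the difference was 0.10 (adjusted p = 0.791). The ratio of unconservative_6_673431 to unconservative_6_673433 was 3.46, 4.76 and 4.55 in S02, S06 and S07, and 1.83, 2.29 and 2.24 in S03, S04 and S05. This ratio was thus higher in all white libraries, with a difference in its log2 of -1.0 (two-sided exact permutation p = 0.1, the smallest that 3 against 3 allow).

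A second pair of neighbouring numbers showed a wider split. unconservative_5_628504 measured 6006, 7227 and 5523 RPM in S02, S06 and S07, then 3305, 4581 and 3617 RPM in S03, S04 and S05. All white libraries were above all black ones, but the difference of -0.71 (standard error 0.19) had a limma adjusted p of 0.0532, above 0.05. The call was made with edgeR (0.0495) and with RPM scaled to named miRNAs (0.0458). The much scarcer unconservative_5_628502 was at 163, 99 and 98.8 RPM in S02, S06 and S07 and at 213, 238 and 198 RPM in S03, S04 and S05. This row lay in the opposite direction, with all black libraries above all white ones (0.88, adjusted p = 0.0723), and passed with DESeq2 (0.0472) and without S02 (0.0207). The ratio of the abundant to the scarce row was 36.8, 73.0 and 55.9 in white (S02, S06, S07) and 15.5, 19.3 and 18.3 in black skin (S03, S04, S05), a difference in log2 of -1.59 (exact permutation p = 0.1).

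In all, 3 pairs had numbers at most 10 apart and means of at least 100 RPM in both rows. The third, unconservative_3_394243 with unconservative_3_394245, overlapped between the groups, with a log2 ratio of 2.02 ± 0.63 for white and 1.6 ± 0.15 for black libraries (SD, n = 3, exact permutation p = 0.4). Adjusted over the 3 pairs, the p-values were 0.15, 0.15 and 0.4, and this design can reach none under 0.05. These pairs were picked after their values had been seen. Whether such rows are the arms of 1 hairpin is not given in the sources used here.

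Among the 10 most abundant rows 1 more fell in black skin. unconservative_3_403490 was at 336, 513 and 334 RPM in S02, S06 and S07 and at 162, 236 and 187 RPM in S03, S04 and S05. The groups did not overlap, and the mean was 2.02-fold lower in black skin, at 195 ± 37.3 RPM against 395 ± 103 RPM (SD, n = 3; difference -1.0, standard error 0.24, adjusted p = 0.0408). The call was lost with no filter on low counts (0.0712) and without S03 (0.156), S04 (0.0709), S05 (0.129), S06 (0.126) or S07 (0.0672).

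**Figure D3:**
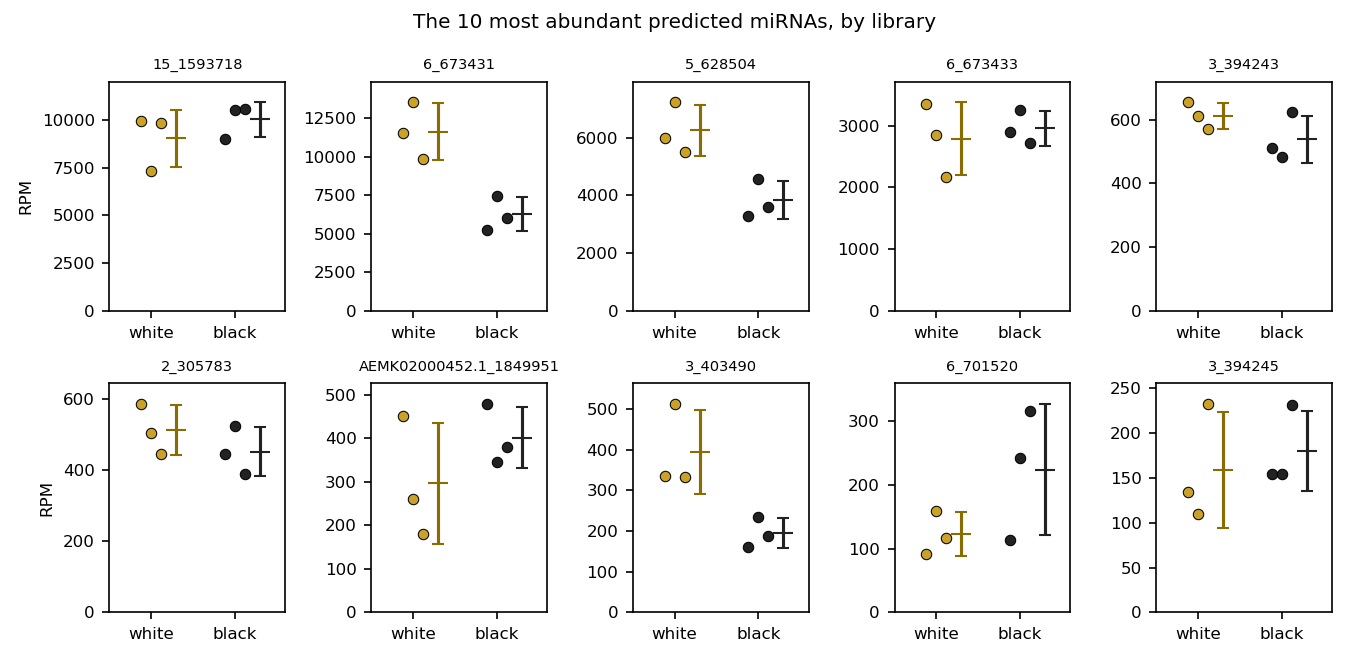
RPM of the 10 most abundant predicted miRNAs, 1 panel each with an axis from 0, headed by the identifier without its prefix; points are libraries and the bars show the mean ± SD (n = 3). The groups are apart for 6_673431, 5_628504 and 3_403490, all higher in white skin, and overlap in the other 7 panels.

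The rest of the 10 most abundant overlapped between the groups. The most abundant of all, unconservative_15_1593718, was at 9941, 7331 and 9859 RPM in S02, S06 and S07 and at 8988, 10529 and 10553 RPM in S03, S04 and S05. Its libraries lay close together, with S06 the lowest, and the difference was 0.16 (adjusted p = 0.656). The most even row of at least 10 RPM was unconservative_3_394243, with a coefficient of variation of 11.7% over the 6 libraries, followed by unconservative_15_1593718 (12.8%), unconservative_2_305783 (14.5%) and unconservative_6_673433 (14.7%). By contrast unconservative_AEMK02000452.1_1849951 ranged from 180 to 479 RPM, unconservative_6_701520 from 91.6 to 317 RPM and unconservative_3_394245 from 110 to 232 RPM, each with overlap between the groups.

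The 2 rows that rose in black skin are scarce, and their values nearly repeat each other. unconservative_6_663466 was at 1.1, 0.310 and 0.984 RPM in S02, S06 and S07 and at 8.65, 3.00 and 4.39 RPM in S03, S04 and S05. All black libraries were above all white ones. unconservative_1_93424 had the same reads in 5 libraries and differed by 2 reads in S04, where it was at 2.73 RPM. For the first, 127 black reads stood against 20 white ones, 6.4 times as many per library total (95% exact counting interval 3.98 to 10.8), and for the other 125 against 20. No white library and every black one reached the filter level of 1.33 RPM for either row, so the test adds no support to these values. The differences were 1.75 (standard error 0.37, adjusted p = 0.0318) and 1.72 (0.38, adjusted p = 0.0324). Both calls were lost with a pseudocount of 10 (0.0582 and 0.0659) and without S03, S05, S06 or S07 (up to 0.116 and 0.124). Such intervals pool the reads of all libraries of a colour and hold the error of counting alone. They leave out the scatter between libraries, and PCR copies of a molecule are counted as separate reads.

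The remaining call was a fall of a scarce row. unconservative_6_683512 was at 2.74, 4.18 and 3.44 RPM in S02, S06 and S07 and at 0.904, 0.955 and 1.16 RPM in S03, S04 and S05. The groups were apart, with 82 white and 24 black reads, 3.39 times as many per library total (95% counting interval 2.13 to 5.59). Here every white library and no black one reached the filter level, so again the test adds no support. The difference was -1.14 (standard error 0.25, adjusted p = 0.0324), and the call was lost without S03, S04, S05, S06 or S07 (0.0762 to 0.125).

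The number of calls turned on single libraries. It was 0 without S05 or S06, where 17 and 25 rows still had an unadjusted p under 0.05 (limma), 2 without S03 or S07, 4 without S04 and 8 without S02. Of the 5 calls made with all libraries, 5 were kept without S02, 3 without S04, 1 without S07 and 0 without S03, S05 or S06. edgeR called 7 of the 204, among them all 5. DESeq2 called 15, of which 11 were higher and 4 lower in black skin, again with all 5. Over all 454 tested miRNAs edgeR called 30 and DESeq2 52.

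**Figure D4:**
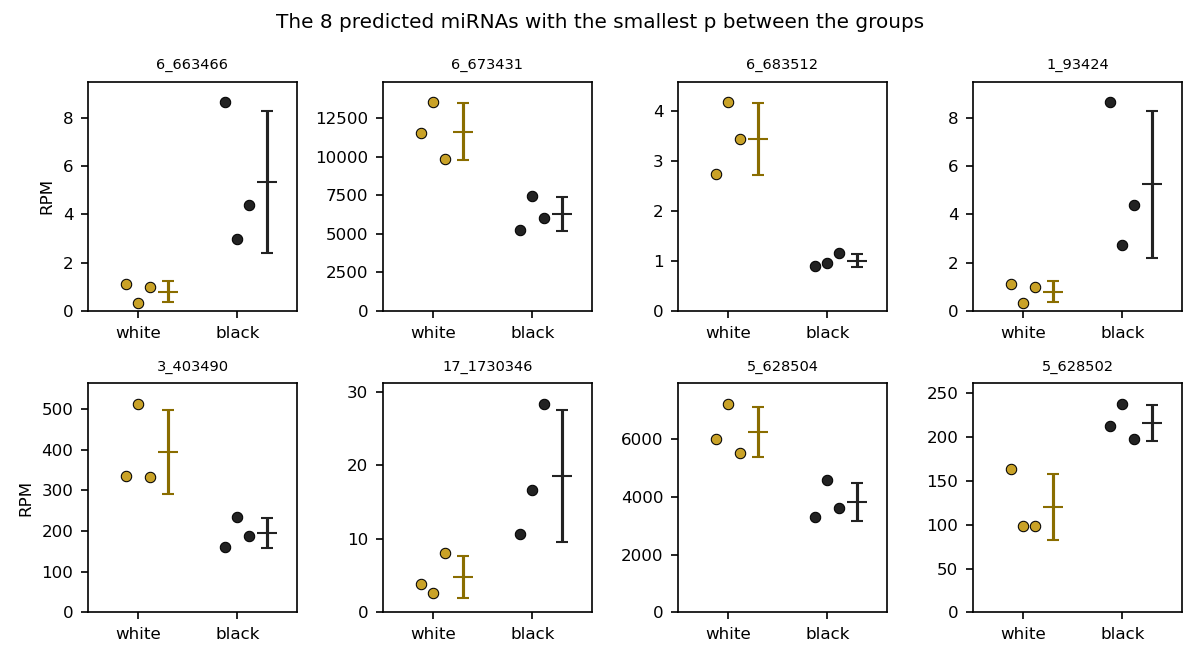
RPM by library for the 8 predicted miRNAs with the smallest p-values, 1 panel each with an axis from 0; points are libraries and bars the mean ± SD (n = 3). The groups do not overlap in any panel; the first 5 panels are the called rows, and 6_663466 and 1_93424 differ in a single black library.

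Another 20 rows had groups that did not overlap and an adjusted p between 0.0509 and 0.197, 11 higher and 9 lower in black skin. The closest to the threshold was unconservative_17_1730346, at 3.84, 2.63 and 8.07 RPM in S02, S06 and S07 and at 10.6, 16.6 and 28.3 RPM in S03, S04 and S05. Black libraries were higher throughout but far apart from each other, with a difference of 1.74 (standard error 0.45, adjusted p = 0.0509). It passed with DESeq2 (0.00317), with no filter (0.0485), with distinct rows only (0.0476) and without S07 (0.0465).

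The widest difference among these 20 was that of unconservative_X_1811632, at 4.52, 28.7 and 14.0 RPM in S02, S06 and S07 and at 2.07, 3.14 and 3.35 RPM in S03, S04 and S05. White libraries were higher, and S06 alone held 51.5% of the summed RPM. The difference was -1.82 (standard error 0.55, adjusted p = 0.0804), and it passed with edgeR (0.0495), DESeq2 (0.000337) and without S02 (0.00725). unconservative_3_391010 (1.20), unconservative_3_338537 (1.04) and unconservative_1_189035 (1.1) lay higher and unconservative_7_818280 (-1.07) and unconservative_4_518332 (-0.89) lower in black skin, with adjusted p of 0.0804 to 0.134.

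Rows that repeat each other recur among the predicted miRNAs. Beside the 7 dropped rows, which fell into 6 sets, 3 pairs were near copies, with equal reads in at least 4 libraries or values within 5% in all 6. unconservative_7_806305 and unconservative_11_1153701 differed by 1 read in S05 out of 408 and 407 reads. unconservative_14_1441614 and unconservative_1_189035 differed by at most 1 read per library out of 271 and 268. The third pair holds the 2 rows that rose. In each pair the identifiers name different chromosomes, and 1 of the dropped sets names chromosomes 14, 1 and 9 and another X and Y. None of the 240 equalled a named miRNA in all libraries.

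Looser repeats were found among the 57 rows with a mean of at least 10 RPM. Of their 1596 pairs, 8 (0.501%) kept their ratio nearly constant, with a standard deviation of the log2 ratio under 0.1 over the 6 libraries. Among 184 named miRNAs of that level with distinct values, 36 of 16836 pairs (0.214%) did so. The 8 pairs join 10 rows into 4 sets, each with identifiers from different chromosomes. This limit was set after the values were seen, and the sets are descriptions.

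The first set shows the pattern. unconservative_1_47958 was at 61.0, 108 and 45.7 RPM in S02, S06 and S07 and at 37.6, 64.2 and 94.6 RPM in S03, S04 and S05. Its values were 1.08 to 1.16 times those of unconservative_8_924183 in each library and 1.12 to 1.27 times those of unconservative_13_1279793. In each row S06 was the highest white and S05 the highest black library. S03 lay below every white library and S05 above S02 and S07, so the groups overlapped. The second set, unconservative_14_1521068, unconservative_X_1825269 and unconservative_1_170279 with means of 34.2, 28.0 and 23.9 RPM, had the same library order within each colour, while S03 was above S07 in it and below S07 in the first. In it unconservative_X_1825269 stayed at 1.16 to 1.19 times unconservative_1_170279.

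The third set was the pair of unconservative_6_701520 and unconservative_5_613905. unconservative_5_613905 was at 78.9, 136 and 99.2 RPM in S02, S06 and S07 and at 103, 231 and 301 RPM in S03, S04 and S05. S04 and S05 stood above every white library and S03 among them, so the groups overlapped (0.91, adjusted p = 0.176, and 0.78, adjusted p = 0.235, for unconservative_6_701520). The ratio of unconservative_6_701520 to it was 1.05 to 1.17. The fourth set joins unconservative_3_439013 and unconservative_8_935187, at ratios of 1.56 to 1.75. None of the 10 rows in the 4 sets was called by limma, and their unadjusted p was under 0.05 for unconservative_5_613905 alone (0.0430). edgeR and DESeq2 also called none of the 10.

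A block of rows on the scaffold AEMK02000452.1 was set apart by 1 white library. Of the 18 rows there, 16 form a run of numbers from 1849924 to 1849983, with no gap over 100. S02 was the highest white library in all 16 and the highest of all 6 in 15, and the exception was the most abundant, unconservative_AEMK02000452.1_1849951, highest in S03. Among the other 224 predicted miRNAs S02 was the highest white library in 81. The level in S02 was 4.20 times the mean of S06 and S07 (median of the 16, range 2.05 to 7.91), and 0.987 times for the other 224. S02 had 7300193 reads over all listed miRNAs, within the range of the other libraries.

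Single rows show how large this was. unconservative_AEMK02000452.1_1849924 was at 157, 27.4 and 29.2 RPM in S02, S06 and S07 and at 24.9, 46.0 and 34.8 RPM in S03, S04 and S05. unconservative_AEMK02000452.1_1849926 was at 127, 14.3 and 22.1 RPM in white (S02, S06, S07) and 33.6, 50.05 and 40.9 RPM in black skin (S03, S04, S05). Both were above all other libraries in S02 alone, while S06 and S07 were near or below the black libraries. unconservative_AEMK02000452.1_1849935 and unconservative_AEMK02000452.1_1849953 had 54.9% and 54.4% of their summed RPM in S02. The summed RPM of the block was 921 in S02, 344 in S06 and 270 in S07, and 590, 495 and 505 in S03, S04 and S05. Most of each sum outside S02 is unconservative_AEMK02000452.1_1849951. Without that row the sum was 469 RPM in S02, 83.35 in S06 and 90.7 in S07, and 111, 151 and 125 in S03, S04 and S05. Only 5 of the 15 remaining rows were lower in both S06 and S07 than in every black library.

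**Figure D5:**
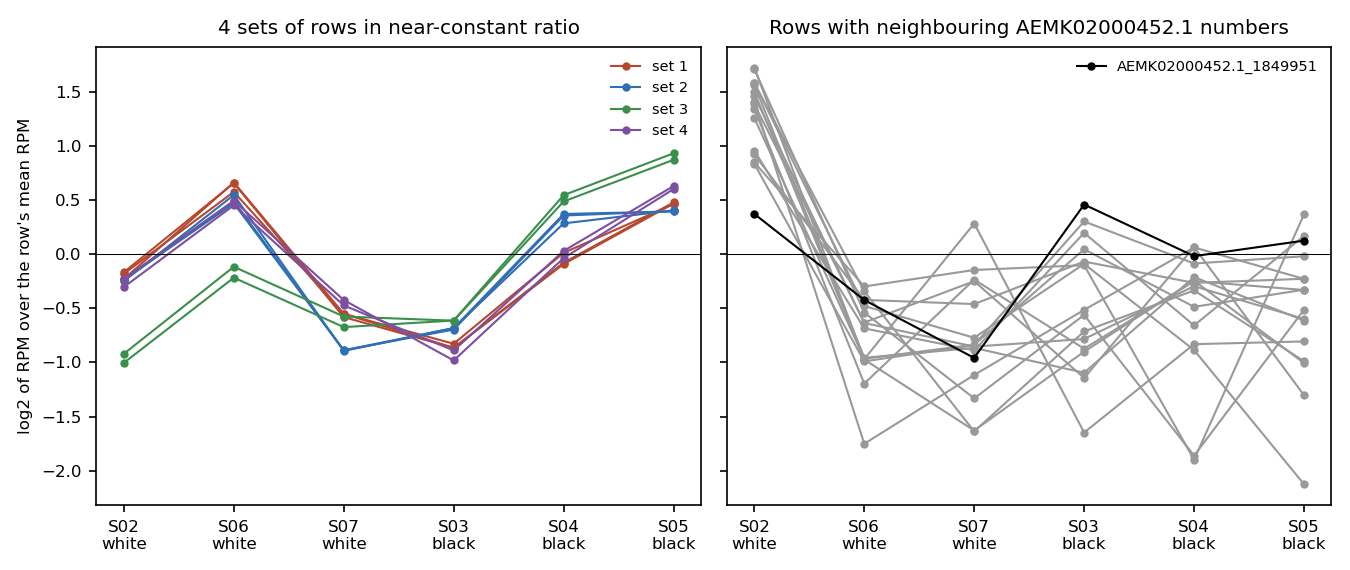
Log2 of each row's RPM over its own mean, by library, for the 10 rows in near-constant ratio (left, 4 sets in colour) and the 16 rows with neighbouring AEMK02000452.1 numbers (right, unconservative_AEMK02000452.1_1849951 in black). Lines of a set nearly coincide on the left, and on the right S02 is the highest library in 15 of the 16.

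Some rows were concentrated in other libraries. In 6 of the 240 a single library held over 50% of the summed RPM, S02 in 3 of them and S05, S06 and S07 in 1 each. unconservative_2_262053 was at 98.8 RPM in S07 and at 4.09 to 8.68 RPM in the other 5 libraries, so 1 library made its higher white mean. Its white libraries did lie above its black ones (difference -1.76, adjusted p = 0.204). unconservative_3_357512 was high in S02 (4.38 RPM) and S04 (3.55 RPM), libraries of both colours, and had 0 or 1 read in each of the others.

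A pair of scarce rows with consecutive numbers on X had higher levels in black skin and fell below the filter for the test. unconservative_X_1843986 had 0, 1 and 3 reads in S02, S06 and S07, and 10, 17 and 40 reads in S03, S04 and S05. The 67 black reads were 16.9 times the 4 white ones per library total (95% counting interval 6.3 to 63.8). unconservative_X_1843987 had 7, 2 and 4 reads in S02, S06 and S07, and 49, 8 and 31 reads in S03, S04 and S05, and the same ratio was 6.83 (3.79 to 13.3). Groups did not overlap in RPM for either row. Both rows reached the limit of 1 RPM only through black skin, so their ratios are descriptions. The mean of unconservative_X_1843986 was 2.74 RPM in black against 0.150 RPM in white skin. unconservative_X_1843987 was at 0.959, 0.310 and 0.393 RPM in S02, S06 and S07 and at 6.33, 1.09 and 3.58 RPM in S03, S04 and S05. Their counting intervals leave out the scatter between libraries.

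Most of the 240 rest on few reads. The median was 125 reads over the 6 libraries and the lowest 48, and 183 rows lay between 1 and 10 RPM. At least 1 read was found for 239 or 240 of them in every library, and 0 were absent from all libraries of a group. A few reads do not settle whether a row is confined to a colour. For unconservative_X_1843986 4 white reads stood against 67 black ones. For all 240 the median counting error was 21.9% per library, against a median coefficient of variation within groups of 33.8%.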

How the data were processed

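The authors deposited 1 table of miRNA levels in RPM, a unit read from the column totals. The submitters' processing notes name Bowtie (no version) and Sscrofa11.1, without a role; which tool counted or predicted miRNAs is not given in the sources used here. Each deposited value equalled a whole read number to within 0.001 (100%), and these reads were used for count tests. Libraries were grouped by colour from the labels. The members and lists were chosen with earlier results of these data known.

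The main test was limma 3.58.1 (R 4.3.3) with a trend on log2(RPM + 1), black minus white, Benjamini-Hochberg adjusted over the 454 rows kept by filterByExpr of edgeR 4.0.16 (minimum count 10, total 15); a fold change on that scale understates the change of scarce rows. The script was tested on simulated data. Alternatives were edgeR and DESeq2 1.42.0 on recovered reads, TMM factors, scaling to named miRNAs, pseudocounts 0.1 and 10, no filter, distinct rows, other totals for the share of reads and leaving out each library.

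Rows named are all called, the 10 most abundant, 8 near the threshold, the 3 on each side of 1 RPM, up to 4 held by 1 library, near copies and the 4 most even. The neighbouring numbers, constant-ratio sets, scaffold block, unconservative_3_357512, unconservative_9_998993 and unconservative_X_1843987 were chosen after their values were seen. No 2 libraries were duplicates (chi-square over degrees of freedom at least 255). All columns were used (0 left out).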

Additional observations from a re-analysis of the deposited data

How the results depend on the processing

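The 5 calls became 3 with a pseudocount of 10 and 15 with DESeq2 on recovered reads, and ranged from 0 to 8 when 1 library was left out. They numbered 5 to 7 with TMM factors, scaling to named miRNAs, a pseudocount of 0.1, no filter, edgeR or distinct rows only. With no filter 4 were higher and 2 lower in black skin, with DESeq2 11 and 4, against 2 and 3. DESeq2 gave an adjusted p for 181 of the 204 rows and called 52 of all 454 tested miRNAs. The cause of its higher count was not tested. With 1 library left out, 2 libraries are compared with 3. The share of reads held by the 240 was 3.96% in white skin with the 2 omitted miRNAs taken out of the total. Of the reads of predicted identifiers alone it was 20.04% in white and 23.4% in black skin, so the order of the groups turned; that total holds the 2 omitted miRNAs. For 35 named results 489 alternative values were computed, of which 24 lost a call, 13 gained one, 0 reversed and 452 stayed on their side of the threshold. No paired analysis was possible because the labels give no animal, so whether black and white libraries are paired is not known. At 3 reads a level is 0.295 to 0.465 RPM, which limits what can be seen near 1 RPM.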

Other observations

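S06 stood above S02 and S02 above S07 among white libraries, and S05 above S04 and S04 above S03 among black ones, in 11 of the 42 predicted miRNAs at 10 to 100 RPM (26.2%) and in 1 of 69 named miRNAs of that level (1.45%). The order was taken from the rows in near-constant ratio after their values were seen, and 8 of those rows are among the 11.

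unconservative_9_998993 was at 398 RPM in S07 and at 54.7 to 151 RPM in the other libraries. Over the 240, S02 was the highest library for 53 and S06 for 51, and S07 was the lowest most often, for 65. The AEMK02000452.1 block holds 15 of the 53, and S02 was the highest in 38 of the other 224.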
